A study of Mus musculus and Homo sapiens with 17 samples.

Results

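Tight junction genes were followed in mouse skin tumours and in a human squamous carcinoma line, each with and without a knockout (KO) label for DUSP1, a phosphatase that switches off MAP kinases. The set held 9 genes, Ocln, Mal2, Cldn1, Cldn4, Cldn7, Cldn8, Cldn23, Tjp1 and Marveld3, out of 54532 named features in the mouse table and 58735 in the human one. Members were matched by exact gene name, in upper case for the human table, and all 9 were found in both. They were chosen by name with measured values of these same libraries already known. Which of the 5 comparisons guided the choice is not recorded, so every member value in every comparison is a description, with no p-value. Whether a member passed the threshold of the fit over all genes (adjusted p under 0.05) is given to describe it and supports nothing.

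Tight junctions seal the space between neighbouring epithelial cells and control what passes there. Claudins are membrane proteins that pair across that space and form the strands, and the mix of claudins sets which ions and how much water get through. Occludin, tricellulin and Marveld3 share a membrane-spanning domain called MARVEL and sit in the same strands, while Tjp1 (ZO-1) and other plaque proteins tie the strands to actin. Mal2 carries the same kind of domain but belongs to the MAL family, which sorts membrane proteins to the apical surface of epithelial cells. In the epidermis functional tight junctions lie in the granular layer, and mice that lack claudin-1 die after birth from water loss through the skin.

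The mouse part had 11 libraries from animals of the mixed strain C57BL/6-129 that had all been treated with the carcinogen DMBA and TPA, which promotes tumours. The groups held 3 wild-type (WT) skins, 3 WT squamous cell carcinomas (SCC), 3 papillomas labelled DUSP1 KO and 2 SCC labelled DUSP1 KO. Skin labelled KO and WT papilloma were not analysed here, so for skin and papilloma the lesion and the genotype label cannot be told apart. RNA came from full sections of frozen tissue, so it holds all cells of a section, and fewer cells of a type cannot be told apart from less RNA per cell. The human part had 6 libraries of A431, an established epidermoid carcinoma line, 3 with a control guide RNA against Tomato and 3 with a guide RNA against DUSP1. Of each, 100000 cells were injected into the dermis and grown for 3 weeks, after which mouse cells were depleted from the tumours. The descriptions of all 3 KO libraries carry the unexplained tag CL2, so it is unknown whether they come from 1 clone. KO replicates 2 and 3 also share 1 name there, so they may be 1 sample, although their counts differed beyond sampling noise. Counted as 1 library, added after seeing the data, they changed 1 call of a single gene given below, that of CLDN23. No label states that the libraries of a group are separate animals or tumours, so tests measure the spread between these libraries, which may be technical.

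The targeted gene was read first. Dusp1 was at 94.1, 109 and 52.4 counts per 1e6 counts (CPM) in WT skin, 73.3, 83.7 and 66.6 in WT SCC, 129, 109 and 109.6 in papillomas labelled KO, and 139 and 174 in SCC labelled KO. The mouse transcript went against the label: it was higher in SCC labelled KO than in WT SCC, with a log2 fold change of 1.07 ± 0.25 (SE, 2.11-fold, adjusted p = 0.0284 by edgeR's quasi-likelihood test). That call was lost with the replicate number as a block (0.93) and without any 1 of the 5 libraries (0.90 to 1.23). The deleted part of the gene is not given in the labels, and the genotype below is that of the labels. DUSP1 in A431 was at 467 to 485 CPM in control and 71.0 to 77.1 CPM in KO cells, a log2 fold change of -2.68. Library totals ran from 34.4 to 47.9 M counts in mouse and from 41.2 to 53.5 M counts in A431, and a typical gene varied by 36.6% and 6.11% between libraries of a group (biological coefficient of variation). Counts of Y chromosome genes were 6624 and 9552 in skin replicates 1 and 2, 7 in skin replicate 3, 4779 in SCC labelled KO replicate 2 and 0 in every other mouse library, so sexes were mixed in skin and in SCC labelled KO, and 2 of the 3 skins differed in sex from all WT SCC. Xist, a transcript of female cells, was at 0.0745 and 0.705 CPM in skin replicates 1 and 2. It was at 15.3 CPM in SCC labelled KO replicate 2 and at 203 to 497 CPM in every other mouse library. Whether that carcinoma library holds cells of both sexes was not tested. Results that rest on SCC labelled KO replicate 2 are given without it. With skin replicate 3 as the only skin, added after seeing the data, the log2 fold change of Tjp1 in WT SCC against skin was 0.51 in place of 0.61. F11r, named below, was not read on its own under that setting. Keratinocyte markers were present in every mouse library, with a summed level of 9850.0 to 18097 CPM in skin, 44979.8 to 47422 CPM in WT SCC, 46299 to 73089 CPM in papillomas and 59266 to 63039.8 CPM in SCC labelled KO.

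Sequence upstream of the start was looked at for the members whose promoters are in the RefSeq table for GRCm38.p6, which were Ocln, Cldn1, Cldn4, Cldn7 and Tjp1 (7 windows for 5 of 9 genes). Mal2, Cldn8, Cldn23 and Marveld3 are named only. Searched on both strands in 250 bases before each start were the motif of grainyhead-like factors (AACNNGTT), which hold epithelial junction genes active, the E-box of the junction repressors Snail and Zeb (CAGGTG), the AP-1 site (TGANTCA), to which MAP kinase signals lead, and the GC box (GGGCGG). Of 32851 mouse windows of that length 3.64%, 17.2%, 6.75% and 32.7% held these motifs. The windows of Ocln, Cldn4 and Cldn1, which had their lowest mean in WT SCC, are printed in full, chosen with their levels known. Cldn7, a rarer transcript, also had its lowest mean there, and only its E-boxes are shown. A link of these letters to the levels was not tested. The printed windows are written 5′ to 3′ on the gene's strand, all on the minus strand of the chromosome, with matches on either strand in capitals.
Ocln, upstream start, chr13:100552719-100552968: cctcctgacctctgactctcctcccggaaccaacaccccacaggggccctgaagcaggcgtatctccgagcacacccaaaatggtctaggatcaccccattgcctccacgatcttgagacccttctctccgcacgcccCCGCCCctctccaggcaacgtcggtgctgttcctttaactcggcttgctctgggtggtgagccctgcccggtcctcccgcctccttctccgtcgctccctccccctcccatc
Cldn4, chr5:134946935-134947184: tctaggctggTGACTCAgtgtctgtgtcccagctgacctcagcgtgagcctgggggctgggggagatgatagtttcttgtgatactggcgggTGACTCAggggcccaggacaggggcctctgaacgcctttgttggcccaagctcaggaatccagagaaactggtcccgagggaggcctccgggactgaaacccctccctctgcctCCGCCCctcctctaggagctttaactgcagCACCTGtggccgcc
Cldn1, chr16:26371840-26372089: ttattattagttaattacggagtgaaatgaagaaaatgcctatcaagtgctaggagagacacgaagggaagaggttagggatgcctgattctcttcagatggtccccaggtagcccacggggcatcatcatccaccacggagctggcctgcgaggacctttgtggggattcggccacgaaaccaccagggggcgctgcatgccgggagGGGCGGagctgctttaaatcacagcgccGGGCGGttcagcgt
The Ocln window held 1 GC box, at position -112 from the start. The Cldn4 window held AP-1 sites at -240 and -158, a GC box at -44 and an E-box, read as its reverse complement, at -14. In Cldn1 there were GC boxes at -42 and -14 and no E-box or AP-1 letters.

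A second Ocln start, whose window begins at the end of the first and runs into the gene, and the second Cldn7 start each had 2 E-boxes, shown with their neighbouring bases to place the letters.
Ocln, E-box at -213, chr13:100552694-100552723, minus strand: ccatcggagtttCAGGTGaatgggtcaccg
Ocln, E-box at -68, chr13:100552549-100552578, minus strand: ctaggggctcggCAGGTGggtcccagcgca
Cldn7, E-box at -97, chr11:69965312-69965341, plus strand: tttcttcctcttCACCTGgacgaggagggg
Cldn7, E-box at -57, chr11:69965352-69965381, plus strand: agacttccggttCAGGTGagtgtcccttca
No window of a member held the grainyhead-like letters. Matches of letters describe the sequence and show no binding.

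The strand proteins come first. Ocln (ENSMUSG00000021638.12, chromosome 13, 100496507 to 100552718, minus strand, 10 merged exon blocks) encodes occludin. Its level was 19.5, 16.8 and 20.9 CPM in the skin libraries and 5.95, 4.63 and 6.76 CPM in WT SCC. It was 21.9, 21.5 and 21.8 CPM in papillomas labelled KO and 39.0 and 38.6 CPM in SCC labelled KO. The groups did not overlap, WT SCC was the lowest and SCC labelled KO the highest, and papillomas lay 1.14-fold above skin. As fitted log2 fold changes, Ocln differed by 2.75 ± 0.17 (SE) between SCC labelled KO and WT SCC, which is 6.72-fold, by 1.91 ± 0.16 between papilloma and WT SCC, and by -1.72 ± 0.16 between WT SCC and skin. Without SCC labelled KO replicate 2 the first value was 2.76. SCC labelled KO exceeded papillomas by 0.84 ± 0.17, a difference not past the threshold in the 4-group fit and past it with DESeq2 (0.86) and without a filter on low counts (0.88).

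Mal2 (ENSMUSG00000024479.3, chromosome 15, 54571192 to 54602847, plus strand) had the same order of groups, with a wider gap between labels. It was at 63.9, 45.2 and 54.0 CPM in skin, 38.3, 25.5 and 32.2 CPM in WT SCC, 252, 256 and 216 CPM in papillomas labelled KO, and 339.9 and 329.7 CPM in SCC labelled KO. All 5 libraries labelled KO lay above all 6 WT libraries. The log2 fold change was 3.39 ± 0.20 in SCC labelled KO against WT SCC (10.5-fold, and 3.41 without replicate 2), 2.92 ± 0.18 in papilloma against WT SCC (7.55-fold), 0.47 ± 0.19 in SCC against papilloma and -0.77 ± 0.17 in WT SCC against skin. Ocln and Mal2 thus differ in skin: Ocln there was near its papilloma level, and Mal2 4.44-fold below it.

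**Figure D1:**
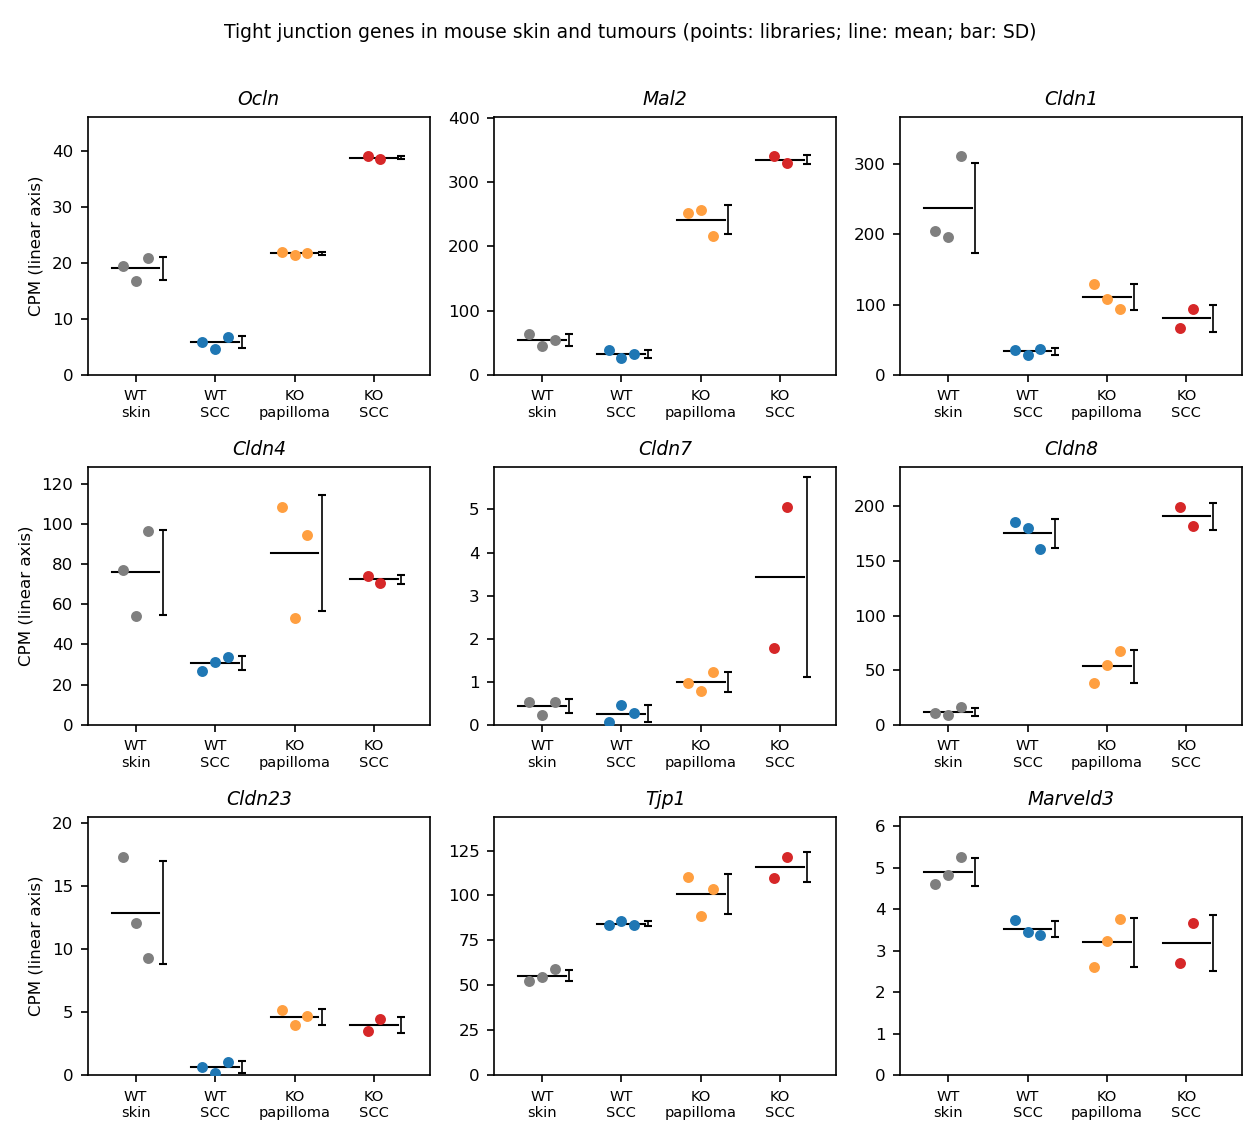
Level in CPM of the 9 genes in each mouse library, on linear axes from 0, by group (points are libraries, lines group means, bars SD). Ocln and Mal2 peak in SCC labelled KO (38.6 and 39.0, 329.7 and 339.9 CPM), Cldn1 and Cldn23 in WT skin, and Cldn8 in both kinds of carcinoma.

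Cldn1 (ENSMUSG00000022512.3, chromosome 16, 26356642 to 26371841, minus strand), the barrier claudin of the epidermis, was highest in skin. Its values were 205, 197 and 311 CPM in skin, 35.3, 28.2 and 37.4 CPM in WT SCC, 129.9, 109 and 93.7 CPM in papillomas labelled KO and 67.0 and 94.3 CPM in SCC labelled KO. WT SCC lay below every other library, and papillomas and SCC labelled KO overlapped. The log2 fold change was -2.82 ± 0.23 in WT SCC against skin (7.07-fold lower), 1.72 ± 0.22 in papilloma against WT SCC and 1.26 ± 0.24 in SCC labelled KO against WT SCC. The last was not past the threshold without SCC labelled KO replicate 2 (0.99) or without WT SCC replicate 2 (1.14).

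Cldn4 (ENSMUSG00000047501.3, chromosome 5, 134945119 to 134946934, minus strand, a single exon), a sealing claudin of many epithelia, was at 76.8, 54.0 and 96.6 CPM in skin and at 27.0, 31.2 and 33.9 CPM in WT SCC. It was at 109, 53.3 and 94.3 CPM in papillomas labelled KO and 74.0 and 70.6 CPM in SCC labelled KO. Skin, papillomas and SCC labelled KO overlapped, and WT SCC lay below all of them. Fitted log2 fold changes were -1.30 ± 0.26 in WT SCC against skin, 1.48 ± 0.26 in papilloma against WT SCC and 1.24 ± 0.28 in SCC labelled KO against WT SCC. Without any 1 of the 5 carcinoma libraries the last was no longer past the threshold (1.15 to 1.31).

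Cldn23 (ENSMUSG00000055976.6, chromosome 8, 35824712 to 35826559, minus strand), a claudin with a single-exon gene, was highest in skin. It was at 17.4, 12.1 and 9.27 CPM in skin, 0.639, 0.144 and 1.07 CPM in WT SCC, 5.15, 3.94 and 4.72 CPM in papillomas labelled KO and 3.52 and 4.42 CPM in SCC labelled KO. WT SCC replicate 2 held 7 counts of the gene. On the log2 scale the difference was -4.39 ± 0.54 in WT SCC against skin (21.0-fold lower), 2.90 ± 0.52 in papilloma against WT SCC and 2.69 ± 0.55 in SCC labelled KO against WT SCC. The last was not past the threshold without SCC labelled KO replicate 1 (2.85) or 2 (2.52) or without WT SCC replicate 1 (2.72). Without WT SCC replicate 3, which held the most counts of its group, the values became -5.09, 3.60 and 3.39.

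Cldn7 (ENSMUSG00000018569.12, chromosome 11, 69964779 to 69967885, plus strand), a claudin that also lies along the sides of epithelial cells outside the tight junction, was a rare transcript in all groups. It was at 0.521, 0.242 and 0.529 CPM in skin, 0.0581, 0.453 and 0.280 CPM in WT SCC, 0.983, 0.779 and 1.23 CPM in papillomas labelled KO, and 1.79 and 5.07 CPM in SCC labelled KO. These are 12 to 30, 2 to 22, 32 to 47, and 62 and 204 counts. Skin and WT SCC overlapped, and the 2 carcinomas labelled KO differed by more CPM of this gene than libraries within any other group. Relative to the mean WT SCC varied more, with an SD of 75.1% of the mean against 67.6% in SCC labelled KO. The log2 fold change of 3.66 ± 0.70 against WT SCC rested on replicate 2, without which it was 2.73 and not past the threshold, and it was 4.28 without WT SCC replicate 2. Papillomas differed from WT SCC by 1.88 ± 0.64, past the threshold with DESeq2 (1.91) and not in the 4-group fit.

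Cldn8 (ENSMUSG00000050520.4, chromosome 16, 88560828 to 88563183, minus strand, a single exon), best known as a sodium barrier of kidney and colon epithelia, had another order. Its values were 11, 9.33 and 16.1 CPM in skin, 186, 179.9 and 161 CPM in WT SCC, 38.0, 54.9 and 68.0 CPM in papillomas labelled KO and 199.9 and 182 CPM in SCC labelled KO. Both kinds of carcinoma overlapped, papillomas lay between them and skin, and skin was the lowest. The log2 fold change was 3.85 ± 0.25 in WT SCC against skin (14.5-fold), -1.71 ± 0.23 in papilloma against WT SCC, and 0.12 ± 0.25 in SCC labelled KO against WT SCC. SCC labelled KO exceeded papillomas by 1.83 ± 0.25 (3.56-fold), the 1 member past the threshold in that comparison. That call was lost with the replicate number as a block (1.97) and without SCC labelled KO replicate 1 (1.77) or 2 (1.90) or papilloma replicate 1 (1.64) or 3 (2.04).

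Tjp1 (ENSMUSG00000030516.14, chromosome 7, 65296165 to 65527781, minus strand, 31 merged exon blocks) encodes the plaque scaffold ZO-1 and overlaps the annotated loci Gm44792 and Gm44794 on its own strand and Gm44795 on the other. It was at 52.4, 54.9 and 58.8 CPM in skin, 83.5, 85.9 and 83.5 CPM in WT SCC, 110.3, 88.5 and 104 CPM in papillomas labelled KO and 109.7 and 122 CPM in SCC labelled KO. Skin lay below all tumours, and papillomas overlapped SCC labelled KO. The log2 fold change was 0.61 ± 0.11 in WT SCC against skin, 0.26 ± 0.11 in papilloma against WT SCC and 0.46 ± 0.13 in SCC labelled KO against WT SCC. The last was not past the threshold in the 4-group fit, but was with RLE size factors (0.50), with DESeq2 (0.49) and in a fit of only these 2 groups (0.45).

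Marveld3 (ENSMUSG00000001672.14, chromosome 8, 109947914 to 109962203, minus strand), the third MARVEL protein of the strands, varied least. It was at 4.62, 4.83 and 5.27 CPM in skin, 3.75, 3.46 and 3.38 CPM in WT SCC, 2.60, 3.24 and 3.77 CPM in papillomas labelled KO and 2.71 and 3.68 CPM in SCC labelled KO. Tumour groups overlapped, skin lay above them, and none of the 4 comparisons passed the threshold.

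Counted over the members, SCC labelled KO against WT SCC had 6 of 9 past the threshold, each of them higher, where 4.48% of the 22371 genes tested were higher and 3.38% lower. Papilloma against WT SCC had 5 higher and 1 lower, beside 3.49% and 1.77% of all genes. SCC labelled KO against papilloma had 1 past it, which was higher, beside 0.0492% higher and 0.237% lower of all genes. WT SCC against skin had 2 higher and 5 lower, beside 16.9% and 23.6%. The choice of members used such values, so nothing is read from these counts. WT SCC libraries enter 3 of the 4 comparisons and are the lowest group for 6 of the 9 members, so the comparisons are not independent.

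**Figure D2:**
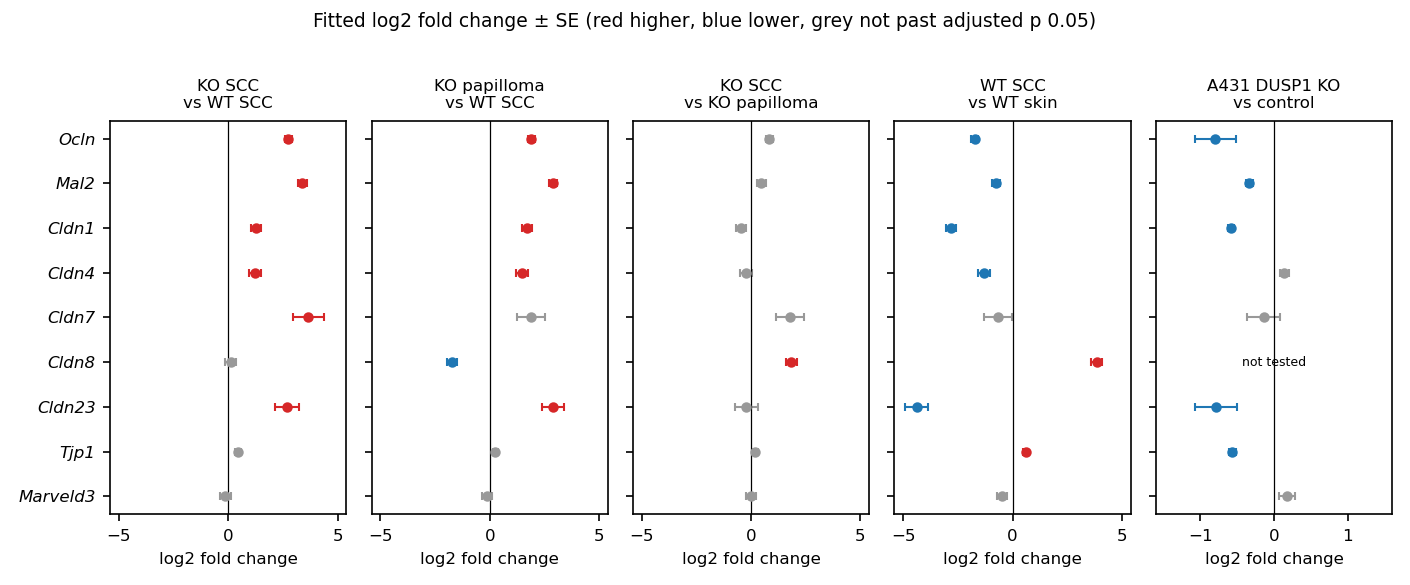
Fitted log2 fold change ± SE of the 9 genes in the 5 comparisons (horizontal axis, narrower for A431). Against WT SCC both kinds of tumour labelled KO are higher for Ocln, Mal2, Cldn1, Cldn4 and Cldn23, Cldn8 is 3.85 higher in WT SCC than in skin, and A431 values lie between -0.79 and 0.18.

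Levels of different genes were compared as CPM per kb of exon sequence (GENCODE M21). On this scale the leading member in skin was Cldn1 at 49.1 ± 13.2 (SD, n = 3), with Cldn4 at 41.7 ± 11.7, a difference within their spread. In WT SCC Cldn8 led at 74.5 ± 5.61, above Cldn4 at 16.9 ± 1.93 and Mal2 at 10.8 ± 2.16. In papillomas labelled KO Mal2 led at 81.9 ± 7.55, and in SCC labelled KO it led at 113 ± 2.45 (n = 2), above Cldn8 at 81.1 ± 5.36. Ocln was never above the sixth place among the 9, at 1.37 ± 0.254 in WT SCC and 9.20 ± 0.0628 in SCC labelled KO.

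The make-up of the claudin transcripts put Cldn1 and Cldn8 in opposite order in skin and in WT SCC. The mouse table held 33 claudin genes, 26 of them with counts, and their summed level was 164 ± 24.0 CPM per kb in skin, 149 ± 2.85 in WT SCC, 152 ± 14.9 in papillomas and 245 ± 34.5 in SCC labelled KO. Cldn1 made up 29.99% ± 6.13 of that sum in skin, 4.67% ± 0.698 in WT SCC, 15.3% ± 4.09 in papillomas and 6.75% ± 0.677 in SCC labelled KO. Cldn8 made up 3.13% ± 0.637, 50.1% ± 2.88, 14.8% ± 2.84 and 33.5% ± 6.91 in the same order. Cldn1 thus exceeded Cldn8 by 9.10 to 10.3 times in each skin library, while Cldn8 exceeded Cldn1 by 8.84 to 13.1 times in each WT SCC and by 3.97 to 6.13 times in each SCC labelled KO. The ratio of Cldn8 to Cldn1 was 0.602, 1.04 and 1.49 in the papillomas. Cldn4 made up 25.2% ± 4.20 in skin, 11.4% ± 1.51 in WT SCC, 31.4% ± 12.7 in papillomas and 16.4% ± 2.86 in SCC labelled KO. Cldn17, a neighbour of Cldn8 at 53.8 kb on chromosome 16, named here after its values were seen, made up 1.70% ± 2.74, 24.7% ± 0.627, 24.6% ± 15.4 and 34.9% ± 8.57 in the same order. In papillomas its share ran from 8.25 to 38.8%.

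**Figure D3:**
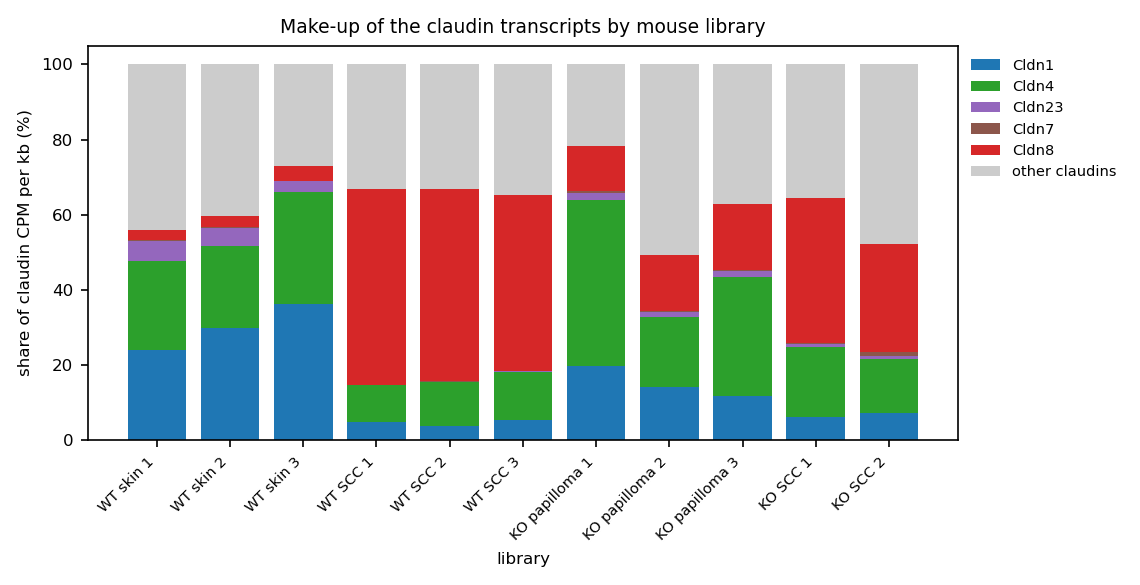
Share of each claudin in the summed claudin level of a library (CPM per kb of exon, stacked to 100%), for the 11 mouse libraries. Cldn1 (blue) takes 23.9 to 36.2% in skin and 3.91 to 5.29% in WT SCC, while Cldn8 (red) takes 2.63 to 3.84% and 46.8 to 52.1%.

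The other genes of the tight junction were read from a list of 41 that holds no member. Like the lists below, it was chosen with earlier results of these data known. The p-values and calls of these lists describe the libraries and are no independent support. Of the 41 genes, 40 were found and 36 tested in mouse. Of these, 3 rose and 0 fell in SCC labelled KO against WT SCC (unadjusted p under 0.05 in 9 and 5, DESeq2 6 and 3), with a median log2 fold change of 0.06 against -0.01 for all genes, of which 4.48% were higher and 3.38% lower. In a fit of only these 2 groups 5 partner genes were higher and 5 lower. The 3 that rose in the 4-group fit were Marveld2, Magi3 and Cgn. Marveld2 encodes tricellulin, the MARVEL protein of the corners where cells meet, and lies 43.2 kb from Ocln. It was at 12.4 to 12.7 CPM in SCC labelled KO and 2.20 to 3.60 CPM in WT SCC, a log2 fold change of 2.12 ± 0.25 (edgeR quasi-likelihood test with Benjamini-Hochberg adjustment, adjusted p = 0.00112), and kept that call under each alternative. Magi3, a plaque scaffold, rose by 0.88 ± 0.15 (adjusted p = 0.00663 by edgeR), a call lost without SCC labelled KO replicate 2 (0.72). Cgn, the actin linker cingulin, rose by 1.13 ± 0.27 (adjusted p = 0.0286 by edgeR), a call lost with the replicate block (1.15), without SCC labelled KO replicate 2 (0.68) and without WT SCC replicate 1 (1.07) or 2 (1.01).

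In papilloma labelled KO against WT SCC 3 of the 36 rose and 0 fell, beside 3.49% and 1.77% of all genes, with a median log2 fold change of 0.17 against 0.02 for all genes (unadjusted p under 0.05 in 7 and 5, DESeq2 5 and 0). Marveld2 rose by 1.93 ± 0.23 (adjusted p = 0.000803 by edgeR) and Cgn by 1.56 ± 0.25 (adjusted p = 0.00428 by edgeR). Tjp3, the scaffold ZO-3, rose by 1.41 ± 0.34 (adjusted p = 0.0359 by edgeR), a call lost with the replicate block (1.41) and without any 1 of the 6 libraries compared (1.17 to 1.57). In SCC labelled KO against papilloma 0 of 36 passed edgeR's test, beside 0.0492% higher and 0.237% lower of all genes. The unadjusted p was under 0.05 in 4 higher and 1 lower, and DESeq2 called 2 and 1. The median was -0.06 against -0.05.

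In WT SCC against skin 8 of the 36 rose and 16 fell, beside 16.9% and 23.6% of all genes, with a median of -0.66 against -0.16 for all genes. The rule for naming gave Magi3, Cldn5 and Cldn10. Magi3 rose by 1.62 ± 0.14 (adjusted p = 1.76e-05 by edgeR), from 8.91 to 9.25 CPM in skin to 24.6 to 30.02 CPM. Cldn5, the claudin of blood vessel endothelium, fell by 2.37 on the log2 scale (SE 0.21, adjusted p = 2.09e-05 by edgeR). Cldn10 fell by 5.66 (SE 0.59, adjusted p = 5.08e-05 by edgeR), from 22.6 to 57.3 CPM in skin to 0.309 to 1.16 CPM, and by 5.04 with skin replicate 3 as the only skin. Beside these falls, endothelial markers summed to 219 to 241 CPM in skin and 144 to 169 CPM in WT SCC (3 of 6 lower, 1 higher), and markers of sweat and sebaceous glands to 2715 to 3677 and 352 to 433 CPM (6 of 7 lower, 1 higher). The part of such cells in these falls was not tested. Named after their values were seen, Marveld2 fell by 2.11 (SE 0.23, adjusted p = 6.65e-05 by edgeR) and Cgn by 2.07 (SE 0.25, adjusted p = 0.000120 by edgeR), while F11r and Cldn17 were among the 8 that rose. Cldn17 rose by 3.65 ± 1.14 (adjusted p = 0.0259 by edgeR), with skin libraries from 0.181 to 10.1 CPM, a call lost without WT SCC replicate 1 (3.62) or 2 (3.67) or skin replicate 2 (3.07). Without skin replicate 1 it was 7.56, and with skin replicate 3 as the only skin 7.32.

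**Figure D4:**
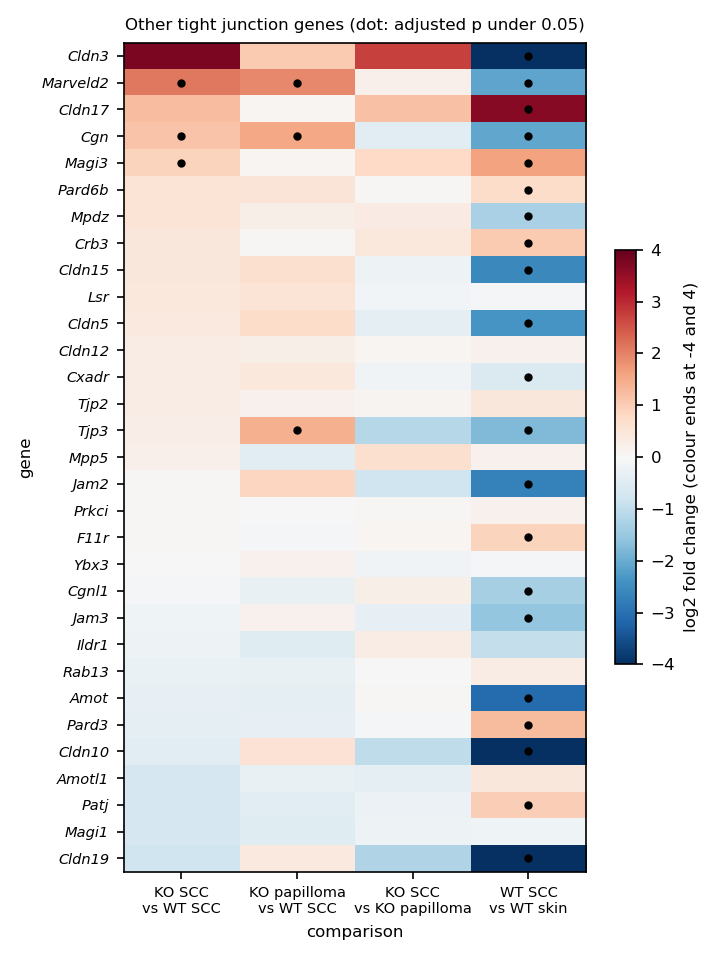
Log2 fold change (colour) of 31 tight junction genes other than the members in the 4 mouse comparisons (columns), for genes with an average log2 CPM of at least 0, with dots where the adjusted p is under 0.05. Marveld2 and Cgn are dotted in 3 columns. They are lower in WT SCC than in skin and higher in both tumours labelled KO than in WT SCC. No gene is dotted between these tumours, where 0.0492% of all genes were higher and 0.237% lower.

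Relatives of Mal2 were read from a list of 11 genes of the MAL and MARVEL families. Among them 1 rose and 0 fell in SCC labelled KO against WT SCC (unadjusted p under 0.05 in 2 and 1, DESeq2 2 and 1), with a median of 0.13 beside the same -0.01, 4.48% and 3.38% of all genes. It was Mal, the founder of the family, at 388.6 to 413 CPM against 62.1 to 88.6 CPM, a log2 fold change of 2.42 ± 0.29 (adjusted p = 0.00146 by edgeR). In papilloma against WT SCC Mal rose by 1.44 ± 0.27 (adjusted p = 0.0101 by edgeR), a call lost without WT SCC replicate 1 (1.32). Plp2 also rose there, by 0.76 ± 0.17 (adjusted p = 0.0243 by edgeR), a call lost with the replicate block (0.76) and without papilloma replicate 1 (0.65) or 3 (0.69) or any 1 WT SCC library (0.74 to 0.79). In WT SCC against skin 3 rose and 4 fell, beside 16.9% and 23.6% of all genes, and Mal rose by 2.62 ± 0.28 (adjusted p = 5.97e-05 by edgeR), whereas Mal2 was lower there. Between SCC labelled KO and papilloma 0 of 11 passed edgeR's test, beside 0.0492% higher and 0.237% lower of all genes. The unadjusted p was under 0.05 in 1 higher and 2 lower, and DESeq2 called 1 and 0.

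The adherens junction, the cadherin belt below the tight junction, was read from 12 genes. In SCC labelled KO against WT SCC 1 rose and 0 fell, beside 4.48% and 3.38% of all genes. The unadjusted p was under 0.05 in 2 and 2, and DESeq2 called 1 and 2. The median was -0.14 against -0.01 for all genes. In papillomas against WT SCC 1 rose and 0 fell (unadjusted p under 0.05 in 3 and 0, DESeq2 2 and 0), with a median of 0.0034 against 0.02, and 3.49% of all genes higher and 1.77% lower. In both it was Nectin4, an adhesion receptor, with a log2 fold change of 0.90 ± 0.18 in SCC labelled KO (adjusted p = 0.0157 by edgeR) and 0.64 ± 0.16 in papillomas (adjusted p = 0.0483 by edgeR). The first call was lost without any 1 of the 5 libraries (0.82 to 0.95), and the second with the replicate block (0.63) and without papilloma replicate 1 (0.53) or 3 (0.58) or any 1 WT SCC library (0.56 to 0.70). In WT SCC against skin 8 of 12 rose and 1 fell, beside 16.9% and 23.6% of all genes, with a median of 0.61 against -0.16. Jup, the shared plaque protein plakoglobin, rose by 1.43 ± 0.24 (adjusted p = 0.000888 by edgeR) and Ctnnd1, p120 catenin, by 0.99 ± 0.16 (adjusted p = 0.000664 by edgeR), while Nectin3 fell by 3.17 (SE 0.27, adjusted p = 1.83e-05 by edgeR).

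Transcription factors known to act on junction genes formed a list of 16, of which 15 were tested in mouse. Against WT SCC, 6 rose and 2 fell in SCC labelled KO, beside 4.48% and 3.38% of all genes, with a median of 0.35 against -0.01. Ovol1, a repressor that keeps epithelial cells differentiated, rose by 1.85 ± 0.23 (adjusted p = 0.00163 by edgeR), to 237 to 259 CPM from 63.9 to 75.2 CPM. Ehf, an ETS factor of epithelia, rose by 1.40 ± 0.22 (adjusted p = 0.00520 by edgeR). Ovol2 fell by 1.25 (SE 0.20, adjusted p = 0.00582 by edgeR), a call lost without SCC labelled KO replicate 1 (-1.24). Snai2, the repressor Slug that binds the E-box, was named after its values were seen. It was at 32.7 to 34.3 CPM in SCC labelled KO, 31.6 to 32.8 CPM in papillomas, 55.5 to 63.3 CPM in WT SCC and 16.04 to 26.9 CPM in skin. It fell by 0.81 (SE 0.19, adjusted p = 0.0263 by edgeR) in SCC labelled KO, a call lost with the replicate block and without any 1 of the 5 libraries (-0.85 to -0.77). Snai1, Zeb1, Zeb2 and Twist1, from the same list, had their highest mean in skin, not in WT SCC. Zeb1 was at 17.1 to 20.3 CPM in skin, 5.64 to 8.43 in WT SCC and 5.45 to 7.15 in SCC labelled KO. Twist1 was at 22.4 to 66.2, 5.02 to 7.57 and 10.8 to 14.2 CPM in these groups. Snai1 was also lower in SCC labelled KO (1.49 to 1.703 CPM) than in WT SCC (2.24 to 3.94 CPM), but not past the threshold. The 2 factors that fell past it there were Ovol2 and Snai2. In papillomas Snai1 was at 0.603 to 3.55 CPM, which overlapped WT SCC. A link of these factors to the member levels was not tested.

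In papilloma against WT SCC 4 of the 15 factors rose and 2 fell, beside 3.49% and 1.77% of all genes, with a median of 0.39 against 0.02. Grhl1, a grainyhead-like factor, rose by 0.87 ± 0.13 (adjusted p = 0.00272 by edgeR), Ovol1 by 1.39 ± 0.21 (adjusted p = 0.00348 by edgeR) and Ehf by 1.11 ± 0.20 (adjusted p = 0.00855 by edgeR), the last a call lost without WT SCC replicate 2 (1.08). Snai2 fell by 0.88 (SE 0.17, adjusted p = 0.0107 by edgeR), a call lost without WT SCC replicate 2 (-0.82). In WT SCC against skin 9 rose and 4 fell, beside 16.9% and 23.6%, with a median of 0.65 against -0.16. Klf5 rose by 1.73 ± 0.19 (adjusted p = 6.41e-05 by edgeR) and Snai2 by 1.45 ± 0.17 (adjusted p = 8.94e-05 by edgeR), while Zeb2 fell by 2.34 (SE 0.24, adjusted p = 5.19e-05 by edgeR). Between SCC labelled KO and papilloma 0 of the 15 factors and 0 of the 12 adherens genes passed edgeR's test. Of all genes 0.0492% were higher there and 0.237% lower. Among the factors the unadjusted p was under 0.05 in 0 higher and 1 lower (DESeq2 0). Among the adherens genes it was so in 1 and 1 (DESeq2 1 and 0). Zeb2 is also made by cells other than keratinocytes, and fibroblast markers summed to 4744 to 36355 CPM in skin and 2322 to 3961 CPM in WT SCC (6 of 6 lower). The part of such cells in the Zeb2 value was not tested.

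Markers of other cells and of mucosal epithelium also differed between the groups. The mucosal and simple epithelium list, keratins of moist and single-layered epithelia with Epcam and Muc1, summed to 170.4 to 220.4 CPM in skin, 2029 to 2367 CPM in WT SCC, 3598 to 9972 CPM in papillomas and 15301 to 15687 CPM in SCC labelled KO. Of its 8 genes 2 were higher in SCC labelled KO than in WT SCC and 1 in papilloma than in WT SCC, with 0 lower in both. Of all genes 4.48% and 3.49% were higher in these comparisons, and 3.38% and 1.77% lower. In WT SCC against skin 2 of the 8 were higher and 3 lower, beside 16.9% and 23.6% of all genes. The median log2 fold change was -0.15, so the sum and the median differ in direction there. Leukocyte markers summed to 449 to 1034, 255 to 357, 101 to 186 and 102 to 117 CPM in the same order of groups. The skeletal muscle list summed to 4385 to 5160.0 CPM in skin, 1.16 to 80.3 CPM in WT SCC and under 1 CPM in tumours labelled KO, with Tnnc2 at 0 in all tumours and Myh4 at 0 in SCC labelled KO. Keratinocyte markers had 10 of 10 higher in WT SCC than in skin, beside 16.9% of all genes. In SCC labelled KO against WT SCC 2 of 10 were higher, beside 4.48% of all genes. The part of these shifts in the member values was not tested.

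The genes most like Ocln and Mal2 across the 11 mouse libraries were found by Pearson's r of log2 CPM among 12379 genes with an average log2 CPM of at least 2. This is a description, since the libraries fall into 4 groups. For Ocln they were Scel (r = 0.979), Ly6c1 (0.970), Crct1 (0.957), Selenoi (0.944) and Pof1b (0.940). Scel, which encodes the cornified envelope protein sciellin, averaged 112 CPM in skin, 38.1 in WT SCC, 138 in papillomas and 203 in SCC labelled KO. For Mal2 they were Gdpd1 (0.979), Ly6a (0.974), mt-Rnr2 (0.972), Smpd1 (0.970) and Nipal1 (0.970), and Gdpd1 averaged 13.8, 11.1, 27.7 and 34.6 CPM in those groups. The lists had no gene in common, and Ocln and Mal2 had r = 0.847 with each other.

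In A431 cells the same genes were compared between DUSP1 KO and control, where the guide and the transcript went together. OCLN was a rare transcript, at 1.24, 1.97 and 1.96 CPM in control and 0.959, 1.45 and 0.593 CPM in KO cells (51 to 104 and 25 to 60 counts). The groups overlapped, and the log2 fold change of -0.79 ± 0.28 was past the threshold, but not with DESeq2 (-0.81) or without KO replicate 3 (-0.53) or control replicate 2 (-0.69) or 3 (-0.70). The annotated pseudogene OCLNP1 had 0.0725 to 0.388 CPM, and reads shared between the copies may be split. MAL2 was abundant, at 201, 203 and 199.9 CPM in control and 165, 158 and 157 CPM in KO cells, a log2 fold change of -0.33 ± 0.04 with no overlap. An antisense gene, MAL2-AS1, had 0.607 to 1.21 CPM.

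CLDN1 was at 1108, 1134 and 1093 CPM in control and 758, 737 and 725 CPM in KO cells, a log2 fold change of -0.59 ± 0.04 (1.502-fold lower). TJP1 was at 86.8, 90.6 and 84.2 CPM and 57.5, 60.2 and 59.4 CPM, a log2 fold change of -0.56 ± 0.05. Both were lower in all 3 KO libraries than in all 3 controls. CLDN23 was at 1.48, 1.15 and 1.41 CPM and 1.15, 0.507 and 0.664 CPM, with a log2 fold change of -0.78 ± 0.29 that was not past the threshold with DESeq2 (-0.81) or without KO replicate 2 (-0.55) or 3 (-0.68), with these summed (-0.68), or without control replicate 1 (-0.72) or 3 (-0.75).

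CLDN4 was at 38.0, 40.2 and 40.5 CPM in control and 43.7, 40.1 and 47.2 CPM in KO cells, and its log2 fold change of 0.14 ± 0.06 was past the threshold only without KO replicate 2 (0.20). CLDN7 (-0.14 ± 0.22, 1.48 to 2.41 CPM in control and 1.33 to 2.13 CPM in KO) and MARVELD3 (0.18 ± 0.11, 6.12 to 7.93 and 7.14 to 8.38 CPM) overlapped between groups. CLDN8 had 0 to 2 counts in each of the 6 libraries, under the 3 counts that a count of 0 allows, and was not tested, whereas the mouse carcinomas held 161 CPM or more. Of the 8 members tested 5 were past the threshold, each of them lower, beside 23.1% higher and 24.5% lower of the 18090 genes tested in A431.

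**Figure D5:**
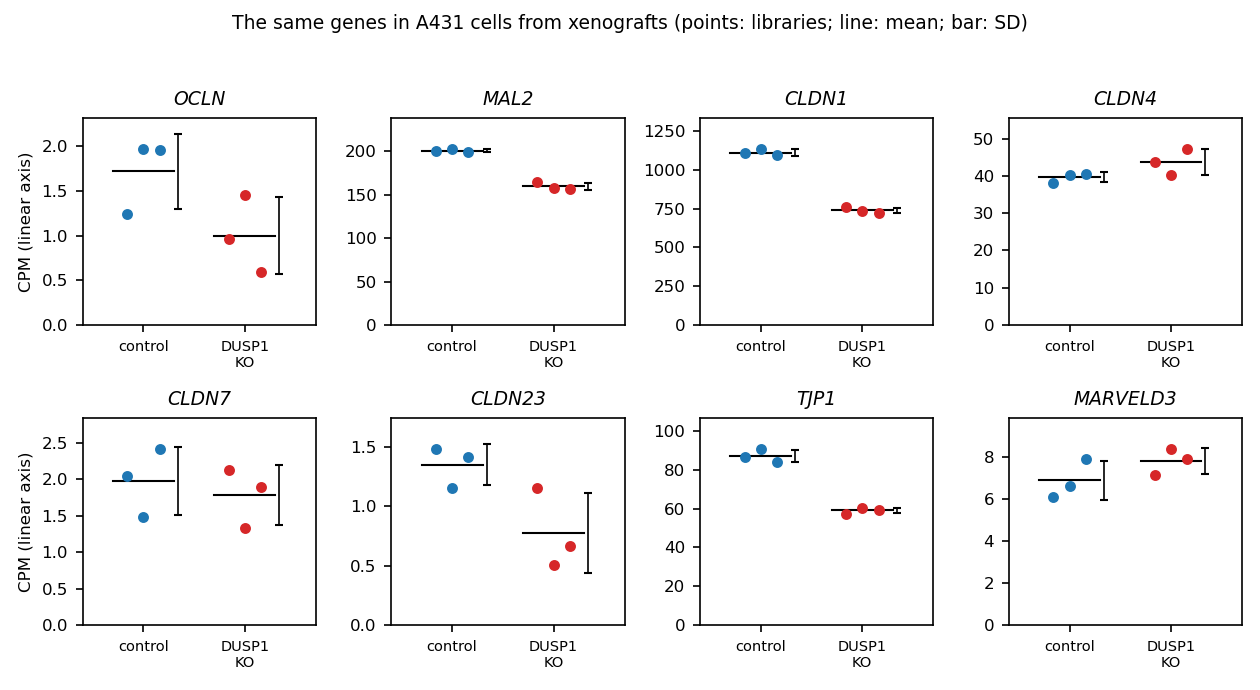
Level in CPM of 8 of the genes in each A431 library, on linear axes from 0 (points are libraries, lines group means, bars SD). MAL2, CLDN1 and TJP1 are lower in all KO libraries than in all controls, and the axis of OCLN, CLDN7 and CLDN23 ends near 2 CPM.

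Of the 41 partner genes 25 were tested in A431, where 7 rose and 8 fell, beside 23.1% and 24.5% of all genes, with a median of -0.10 against 0.01 for all genes. MAGI1, a plaque scaffold, rose by 2.23 ± 0.11 (adjusted p = 2.44e-11 by edgeR), to 14.3 to 14.95 CPM from 2.74 to 3.61 CPM. AMOTL1, an angiomotin of the junction, rose by 0.65 ± 0.05 (adjusted p = 7.32e-09 by edgeR), and PARD3, a polarity protein, fell by 0.34 (SE 0.05, adjusted p = 1.27e-05 by edgeR). Named after their values were seen, MARVELD2 fell by 0.42 (SE 0.09, adjusted p = 0.000956 by edgeR) and CGN by 0.35 (SE 0.12, adjusted p = 0.0192 by edgeR), the latter a call lost without control replicate 1 (-0.36) or 2 (-0.31). In the MAL and MARVEL list 4 of 11 rose and 3 fell, with CMTM6 up by 0.59 ± 0.06 (adjusted p = 1.97e-07 by edgeR). In the adherens list 6 of 12 rose and 3 fell, with NECTIN4 down, as a log2 fold change of -0.47 ± 0.05 (adjusted p = 3.29e-07 by edgeR). Of the 16 factors 4 rose and 4 fell, with GRHL3 up by 0.73 ± 0.05 (adjusted p = 1.97e-09 by edgeR) and OVOL2 at -1.24 ± 0.17 (adjusted p = 1.62e-05 by edgeR). Endothelial markers summed to 0.486 to 0.700 CPM over the 6 libraries, with KDR at 0. The mucosal and simple epithelium list summed to 860.5 to 903 CPM in control and 1823 to 1874 CPM in KO cells (5 of 8 higher, 1 lower), and keratinocyte markers to 59673 to 63096 and 57988 to 59694 CPM (1 of 10 higher, 6 lower). Their part in the member values was not tested.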

How the data were processed

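The 17 RNA libraries were made with a stranded kit for messenger RNA, per the labels' protocols. The deposited tables hold raw counts of each gene, in whole numbers. The submitters' processing notes name HISAT2, StringTie and DESeq, without versions, and the builds mm10 and hg38. How reads were counted, and with which strand setting, is not stated there, so overlapping and antisense genes and near-identical copies are uncertain. Features without a gene name (1456 in mouse, 223 in A431) held 0.115 to 0.496% of a library's counts and were left out, and no column of values was left out (0). Replicates had a Pearson's r of log2 CPM from 0.951 to 0.994 (mouse) and from 0.997 to 0.998 (A431), and chi-square per degree of freedom was 3.34 or more, so no library appeared to be deposited more than once.

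The 11 mouse libraries were fitted together as 4 groups and the 6 A431 libraries on their own, with edgeR 4.0.16 in R 4.3.3 (default filter on low counts, TMM factors of 0.816 to 1.24, quasi-likelihood test, two-sided, Benjamini-Hochberg adjustment over all genes, threshold 0.05). Levels are CPM of the library size scaled by its TMM factor. The script was tested on simulated counts. A gene with no reads was allowed up to 3 counts in a library, a limit for counting error alone. Positions and exon lengths are from GENCODE M21 on GRCm38. Promoter windows and their sequences are from RefSeq. No human positions or lengths and no protein sequences were used. The members and all lists were chosen with earlier results of these data known. The genes named were the members, Dusp1, up to 3 genes per list and comparison with the smallest p among those past the threshold with an average log2 CPM of at least 0 and groups that did not overlap, and the 5 genes most like Ocln and Mal2. The alternatives were RLE size factors, no filter, DESeq2 1.42.0, the replicate number as a block, a fit of only the groups compared, and leaving out each library. Added after seeing the data were A431 KO replicates 2 and 3 summed and skin replicate 3 as the only skin.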

Additional observations from a re-analysis of the deposited data

Results flagged for a closer look

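Every SCC labelled KO and every A431 DUSP1 KO library lay on opposite sides of its control group for 4 of the 8 members tested in both. The 4 are named for that, so nothing is read from their direction. How many of all genes lay on opposite sides in this way was not counted. The fitted log2 fold change was 3.39 for Mal2 and -0.33 for MAL2, 1.26 for Cldn1 and -0.59 for CLDN1, 2.69 for Cldn23 and -0.78 for CLDN23, and 0.46 for Tjp1 and -0.56 for TJP1. The targeted gene also differed in sign, at 1.07 for Dusp1 and -2.68 for DUSP1. The difference between the systems was not tested, since the species were counted in separate tables. The Tjp1 value was not past the threshold in the fit of 4 groups. The calls of Cldn1, Cldn23 and CLDN23 were lost in 2 of 10, 3 of 10 and 6 of 11 alternatives. The CLDN23 groups were barely apart, at 1.151 CPM in KO replicate 1 and 1.154 CPM in control replicate 2. The members had been chosen with these values known.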

How the results depend on the processing

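No result changed direction among those past the threshold. Of 25 member values past the threshold 17 stayed past it under every alternative, and of 19 that were not, 15 stayed so. Of 48 calls of named list genes 35 stayed past it under every alternative. Calls over all genes moved most. In SCC labelled KO against WT SCC they numbered 1760, and 3342 with DESeq2, 798 with the replicate block, 4160 in a fit of only the 2 groups and 302 to 975 with 1 library left out. The partner genes there numbered 3, and 9, 10 (5 higher, 5 lower) and 1 to 4 with DESeq2, the 2 groups and 1 library left out. In papilloma against WT SCC the 1175 became 1854 without a filter, 2171 with DESeq2, 1797 with the 2 groups and 478 to 1100 with 1 library left out, and the 3 partner genes became 5 with DESeq2. In SCC labelled KO against papilloma the 64 became 611 without a filter, 841 with DESeq2, 1 with the replicate block and 0 to 84 with 1 library left out, and the 0 partner genes 2 without a filter and 3 with DESeq2. In WT SCC against skin the 9054 became 5440 with skin replicate 3 as the only skin, where that library is assumed to vary like the other groups. The cause was not tested. Deviations of libraries with the same number had an r of -0.462 to 0.238 in mouse and -0.0251 to 0.00774 in A431. Libraries with different numbers were not set beside them, so these values cannot show whether the numbers pair libraries. The block ended 1 member call, that of Cldn8 in SCC labelled KO against papilloma (log2 fold change 1.97). The 2 libraries of SCC labelled KO limit what that group can show, as do the 2 to 30 counts of Cldn7 per WT library.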
